A study of Mus musculus with 56 samples.

Results

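The 34 genes described here encode the enzymes and regulators of cholesterol and fatty acid synthesis in mouse skin. They were taken by symbol from a list, and 34 of 34 were found among the 24062 genes of the expression table. All 34 passed the filter on low values (at least 2 libraries with an RPKM of 1 or more), which left 16731 genes for testing. RPKM, a read count scaled to gene length and library size, is a level per length, so levels of different genes can be set side by side. The list holds 18 enzymes of sterol synthesis, 6 genes of sterol sensing and transport, and 10 genes of fatty acid synthesis, elongation and desaturation.

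RNA was sequenced from cells of mouse dorsal skin at postnatal day 22, sorted by flow cytometry into 7 populations. All groups came from the line K14-H2BGFP;Crabp1-GFP;Lef1-RFP, whose genotype is labelled CD1, so each carried the same reporters, named for K14, Crabp1 and Lef1, and no treatment other than sorting is labelled. DP denotes dermal papilla cells, the mesenchyme that signals to the follicle from its base, and DF dermal fibroblasts. BuSC and HGSC are the stem cells of the bulge and of the hair germ, Epi is the epidermis, Foll is the remaining, mainly upper, follicle cells, and Neg is a mixed fraction. Each population was taken from 4 zones of the skin and in biological duplicate, so that 28 groups hold 56 libraries and each population has 8. The labels give no position for a zone and hold it in their batch field, so a zone cannot be told apart from a batch. The sources used here do not give the gates of the sort or whether animals were pooled. In bulk RNA, fewer cells of a type and less RNA per cell cannot be told apart.

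Cholesterol is made from acetyl-CoA through mevalonate, the isoprenoids, squalene and lanosterol. The transcription factor SREBP-2, from Srebf2, drives most of these enzymes, and SREBP-1, from Srebf1, drives mainly fatty acid synthesis. Scap escorts both factors out of the endoplasmic reticulum when sterol is low, and Insig1 and Insig2 hold them there when sterol is high. In skin, newly made lipid serves the epidermal barrier, the sebaceous gland and the membranes of dividing cells.

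Promoters are shown because SREBP, with its partners NF-Y and Sp1, acts near the starts of many of these genes. RefSeq promoter windows (GRCm38.p6, 250 bases before to 50 bases after an annotated start) were found for 28 of the 34 genes, and not for Sqle, Fdps, Fdft1, Stard4, Scd2 and Fads1. The NF-Y box CCAAT, searched on both strands, occurred in a window of 14 of 15 sterol enzyme genes, 4 of 5 sensing genes and 5 of 8 fatty acid genes, against 41.9% of the tested genes that had a window. The Sp1 box GGGCGG occurred in 23 of 28, against 63.7%. The sterol response element, searched as TCACNCCAC, was found in 1 of 28, Hmgcs1, against 1.46%. Its variant TCACNTGA was found in 1 of 28, Insig2, against 4.92%. None of these motifs contains another, and a match describes the window only. The windows of 4 genes whose levels recur in the results and that hold CCAAT are given with that of Fads2, as an example of a window that held neither CCAAT nor either sterol element. In Elovl6, Acat2, Acaca and Scap, too, no window held CCAAT or either sterol element. Any relation of these motifs to the levels was not tested. Capitals mark CCAAT, or ATTGG where the box lies on the other strand, and in Hmgcs1 also the sterol response element, which begins 137 bases before the start. The windows are chr13:119690101-119690400 on the plus strand for Hmgcs1, chr8:122443373-122443672 on the minus strand for Mvd, chr5:4104648-4104947 on the minus strand for Cyp51, chr5:28071162-28071461 on the plus strand for Insig1 and chr19:10101454-10101753 on the minus strand for Fads2, each written 5′ to 3′ along its gene.
Hmgcs1: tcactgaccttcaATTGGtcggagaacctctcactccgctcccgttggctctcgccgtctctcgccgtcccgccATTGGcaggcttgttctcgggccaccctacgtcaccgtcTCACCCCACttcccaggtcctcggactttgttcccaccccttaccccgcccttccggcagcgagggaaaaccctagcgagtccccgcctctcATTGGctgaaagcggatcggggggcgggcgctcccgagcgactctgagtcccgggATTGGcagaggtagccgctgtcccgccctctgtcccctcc
Mvd: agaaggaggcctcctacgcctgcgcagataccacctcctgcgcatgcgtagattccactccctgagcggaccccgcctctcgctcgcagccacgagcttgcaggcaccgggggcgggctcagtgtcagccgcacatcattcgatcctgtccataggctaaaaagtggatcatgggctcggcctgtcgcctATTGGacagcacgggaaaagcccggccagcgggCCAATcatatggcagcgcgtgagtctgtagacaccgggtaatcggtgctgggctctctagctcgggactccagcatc
Cyp51: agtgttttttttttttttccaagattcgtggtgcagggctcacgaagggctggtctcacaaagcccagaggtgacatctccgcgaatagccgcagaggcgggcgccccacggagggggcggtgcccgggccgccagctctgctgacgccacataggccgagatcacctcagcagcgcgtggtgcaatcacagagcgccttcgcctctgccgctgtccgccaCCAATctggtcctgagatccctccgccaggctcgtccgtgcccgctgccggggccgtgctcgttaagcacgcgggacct
Insig1: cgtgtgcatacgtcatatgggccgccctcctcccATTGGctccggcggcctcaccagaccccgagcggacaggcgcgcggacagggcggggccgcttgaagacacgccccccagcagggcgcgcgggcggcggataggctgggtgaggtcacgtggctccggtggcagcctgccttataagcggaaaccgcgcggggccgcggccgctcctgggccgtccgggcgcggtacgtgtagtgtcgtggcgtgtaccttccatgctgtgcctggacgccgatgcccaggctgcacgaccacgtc
Fads2: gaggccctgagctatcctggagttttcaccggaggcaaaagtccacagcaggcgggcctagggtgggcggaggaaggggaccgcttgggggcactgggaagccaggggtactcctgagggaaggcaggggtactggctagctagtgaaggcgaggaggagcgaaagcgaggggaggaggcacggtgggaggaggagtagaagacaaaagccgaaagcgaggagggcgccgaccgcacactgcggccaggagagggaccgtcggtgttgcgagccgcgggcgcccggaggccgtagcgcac

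Library depth, recovered from the step size of low RPKM values, ran from 3.24 to 87.8 M reads with a median of 14.9 M reads. Dermal papilla markers summed to 1762 to 2091 RPKM per library in DP and to at most 188 RPKM in any library of another population, and bulge markers reached their highest sums in BuSC (2388 to 4273 RPKM, against 1456 to 3156 in Epi, where Cd34 averaged no more than 1 RPKM). Of the 56 libraries, 52 resembled a library of their own population most closely. The others were the second replicates of Foll in zones 1, 3 and 4 and of Epi in zone 3. The first replicate of BuSC in zone 4 held the most fibroblast transcripts of its population, 8634 RPKM summed over 9 markers. Counts between populations and zones are also given without these 5 libraries.

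By summed level, the sterol enzymes were most abundant in Foll, HGSC and Epi and least abundant in DF. Their summed level averaged 221 ± 32.1 RPKM in DP, 79.1 ± 14.2 in DF, 218 ± 38.8 in BuSC, 389.6 ± 51.6 in HGSC, 359.5 ± 29.4 in Epi, 449.8 ± 43.4 in Foll and 200.1 ± 23.2 in Neg (SD, n = 8 libraries each). Of these sums, Hmgcs1 alone averaged 107 RPKM in Foll, 92.5 in Epi and 46.9 in HGSC. On this deposited scale the highest DF library, at 110.4 RPKM, was below the lowest library of any other population. After median-of-ratios scaling, which divides each library by the median ratio of its genes to their geometric mean over libraries, the separation was lost: the sums were 173 to 249.7 RPKM in DP, 116 to 180.5 in DF, 136 to 219 in BuSC and 149 to 211 in Neg, and DF stayed below HGSC, Epi and Foll. The 10 fatty acid genes summed to 274 ± 21.7 RPKM in DP, 150.0 ± 9.29 in DF, 215 ± 26.2 in BuSC, 293 ± 37.2 in HGSC, 192 ± 34.5 in Epi, 301 ± 40.1 in Foll and 249.8 ± 23.3 in Neg. Fads1 made up much of the DP sum: the other 9 fatty acid genes summed to 171 ± 14.96 RPKM in DP, 254 ± 34.8 in HGSC and 289.5 ± 44.1 in Foll. After median-of-ratios scaling the 10 genes summed to 256 ± 19.5 RPKM in DP, 261 ± 18.02 in DF and 252 ± 40.2 in Foll, so the low place of DF held on the deposited scale and not on this one. On the deposited scale the 6 sensing genes summed to 49.2 ± 9.23 RPKM in DF and 153 ± 21.1 RPKM in Foll, with the other populations in between. Their sums after median-of-ratios scaling were not computed, so the low place of DF is shown for the deposited scale only.

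**Figure D1:**
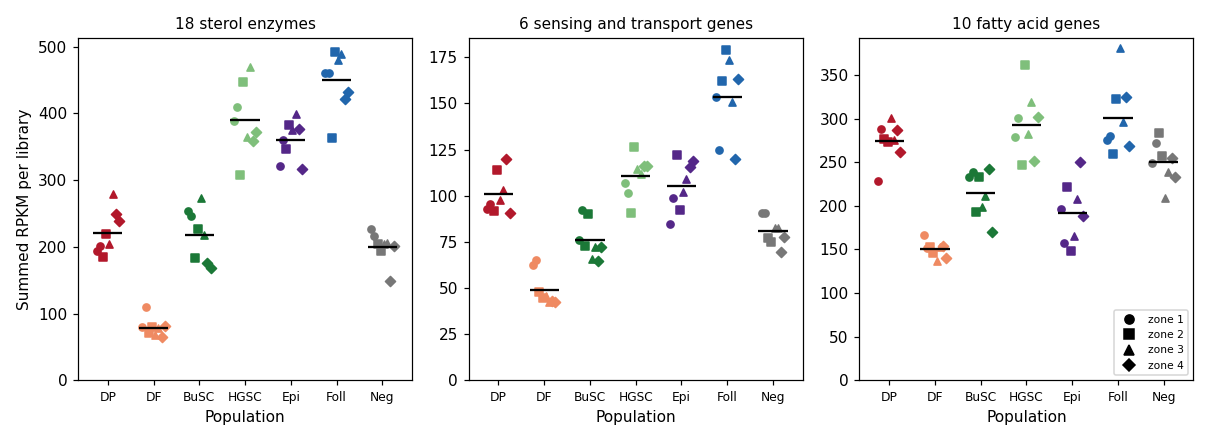
Summed RPKM of the 18 sterol enzymes, the 6 sensing genes and the 10 fatty acid genes in each of the 56 libraries, by population; marker shape gives the zone and the line the mean of 8 libraries. On this deposited scale the DF libraries lie lowest for the sterol enzymes, at 64.3 to 110.4 RPKM, and the Foll libraries reach 492 RPKM.

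Of the 34 genes, 33 differed among the 7 populations (limma F test on log2(RPKM + 1), adjusted p under 0.05), beside 81.8% of all genes tested, and 33 without the 5 libraries. The exception was Tm7sf2, a sterol reductase, whose levels scattered within populations, for example 0 to 15.8 RPKM in Epi (adjusted p = 0.0764). By mean log2(RPKM + 1), Foll was highest for 15 genes, HGSC for 9, Epi for 4, DP for 3 and Neg for 3. DF was lowest for 26, and for 19 of these it differed from the population next above it. After median-of-ratios scaling Foll was highest for 15, DF was lowest for 17 and highest for 3, and for 6 of those it was lowest for, the step to the next population was larger than the spread. When the populations were ranked by level for each gene on the deposited scale, 49 of 204 neighbouring pairs differed (pairwise limma adjusted p under 0.05), beside 13.5% of neighbouring pairs over all genes.

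Which steps in this deposited order were larger than the spread varied by gene. Mvk, Tm7sf2, Msmo1, Nsdhl, Ebp, Sc5d, Insig2, Elovl1 and Elovl5 had no such step. In Pmvk, Fdps, Lss, Cyp51, Hsd17b7, Dhcr7 and Stard4 the step down to DF was the only such step. Hmgcs1 was highest in Foll and Epi, which did not differ, then stepped down to HGSC, again to DP, Neg and BuSC together, and again to DF. Me1 began with Foll and Epi too, and stepped down to HGSC with BuSC, to Neg, to DP and to DF. Fads1 ran in another order, with DP alone at the top, then Neg, HGSC, DF and BuSC together, then Foll, then Epi.

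**Figure D2:**
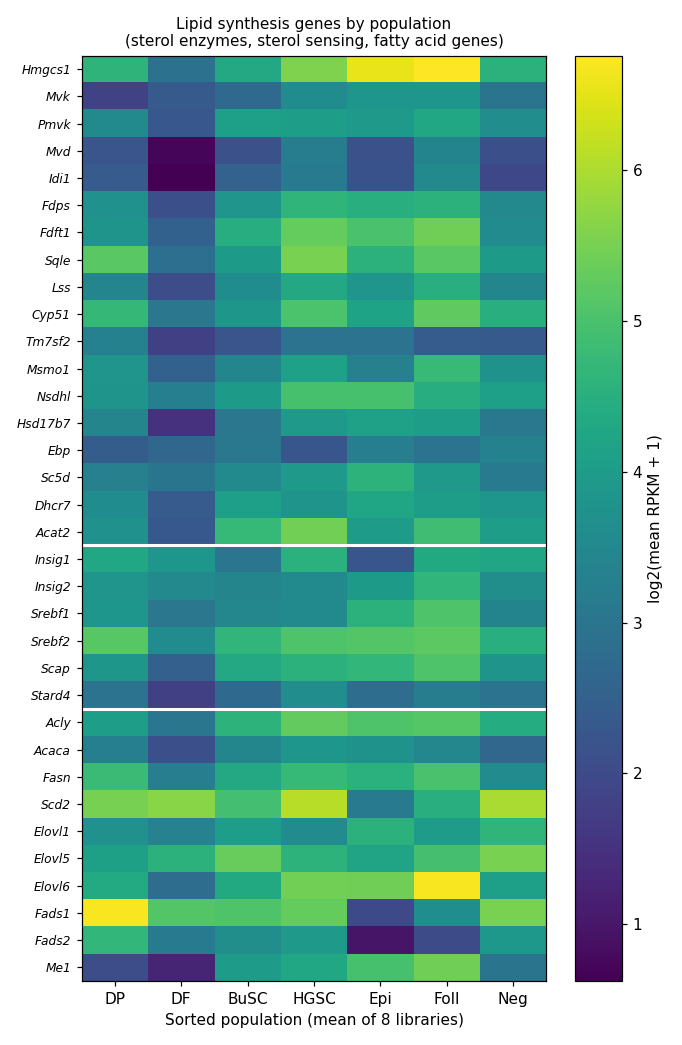
Mean level of each of the 34 genes in the 7 populations, as log2(mean RPKM + 1) over 8 libraries, with lines between sterol enzymes, sensing genes and fatty acid genes. Hmgcs1 and Elovl6 reach 107 and 103 RPKM in Foll, Fads1 reaches 103 RPKM in DP, and on this deposited scale DF is lowest for most sterol enzymes.

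DP was set against DF to compare the mesenchyme of the follicle with that of the dermis. On the deposited scale, sterol and fatty acid genes were higher in DP: 23 of the 34 genes were called higher and 0 lower (limma, adjusted p under 0.05 and a log2 difference of at least 1), beside 24.2% and 6.13% of all genes. Genes lower in DP numbered 1 at an unadjusted p under 0.05, whatever its size, and 0 by voom on recovered reads. The shares of all genes under these rules were not computed, so these counts have nothing to be read against. The 23 were 14 of 18 sterol enzymes, 3 of 6 sensing genes and 6 of 10 fatty acid genes, and the median log2 difference was 1.28 for the 34 genes and 0.47 for all genes. The counts depended on scaling. Fibroblast markers alone summed to 1734 to 2990.0 RPKM in DP and 40549 to 53301 RPKM in DF. Median-of-ratios scaling divided DP libraries by 0.967 to 1.07 and DF libraries by 0.524 to 0.589. It left 4 genes higher in DP (Sqle, Idi1, Hsd17b7 and Mvd) and 4 lower (Mvk, Elovl5, Scd2 and Ebp), beside 6.3% and 12.4% of all genes, with a median of 0.54 for the 34 genes and 0.00 for all genes. Quantile scaling left 6 higher and 2 lower, beside 8.15% and 10.4%. Of all genes called, 79.8% were higher in DP as deposited, 43.97% after quantile scaling and 33.7% after median-of-ratios scaling.

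Sqle, the squalene epoxidase, had 16.3 to 66.5 RPKM (median 34.3) in DP, against 3.62 to 12.3 RPKM (median 5.97) in DF. The groups did not overlap, and the log2 difference was 2.30 (SE 0.22, limma adjusted p = 8.34e-11), or 1.51 after median-of-ratios scaling, which is what rescaled means for the single values that follow. Idi1, the isopentenyl diphosphate isomerase, had 3.40 to 5.13 RPKM (median 4.05) in DP and 0.414 to 0.916 RPKM (median 0.461) in DF, again without overlap (1.76, SE 0.21, adjusted p = 1.79e-08, and 1.36 rescaled). Hsd17b7, a sterol ketoreductase, averaged 9.59 ± 3.43 RPKM in DP and 1.85 ± 0.532 RPKM in DF (1.84, SE 0.27, adjusted p = 4.47e-07, and 1.20 rescaled). With Mvd, the mevalonate diphosphate decarboxylase, at 3.71 ± 1.27 RPKM in DP and 0.665 ± 0.416 RPKM in DF, these were the genes called higher under both rescalings. Cyp51, the lanosterol demethylase, averaged 24.996 ± 3.80 RPKM in DP and 7.25 ± 2.73 RPKM in DF (1.71, SE 0.19, adjusted p = 1.83e-09, and 0.90 rescaled). Hmgcs1, the HMG-CoA synthase that opens the mevalonate branch, averaged 23.4 ± 4.46 RPKM in DP and 6.68 ± 1.48 RPKM in DF (1.67, SE 0.15, adjusted p = 2.16e-11, and 0.87 rescaled). Both enzymes were higher in every DP library than in any DF library and lost the size for a call after median-of-ratios scaling. Mvk, the mevalonate kinase, went the other way at 2.58 ± 2.39 RPKM in DP and 4.17 ± 1.53 RPKM in DF, not called as deposited (-0.74, adjusted p = 0.141) and called lower in DP after median-of-ratios scaling (-1.46).

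Among the sensing genes, Srebf2 averaged 34.7 ± 6.81 RPKM in DP and 11.001 ± 1.75 RPKM in DF, without overlap (log2 difference 1.56, SE 0.13, limma adjusted p = 6.73e-12, and 0.72 rescaled). Insig1 averaged 18.9 ± 6.58 RPKM in DP and 13.3 ± 4.18 RPKM in DF and was not called (adjusted p = 0.103). Fads1, the delta-5 desaturase of polyunsaturated fatty acids, had 84.7 to 118 RPKM (median 100.4) in DP, against 24.4 to 48.6 RPKM (median 32.8) in DF. Every DP library was above every DF library (1.58, SE 0.27, adjusted p = 7.28e-06, and 0.71 rescaled). Fads2, the delta-6 desaturase, averaged 24.7 ± 7.77 RPKM in DP and 8.07 ± 4.88 RPKM in DF, with some overlap (1.63, SE 0.36, adjusted p = 0.000253, and 0.83 rescaled). Scd2, a stearoyl-CoA desaturase, averaged 44.000 ± 3.71 RPKM in DP and 49.7 ± 6.98 RPKM in DF (-0.16, adjusted p = 0.418), which median-of-ratios scaling turned into a call lower in DP (-1.04).

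**Figure D3:**
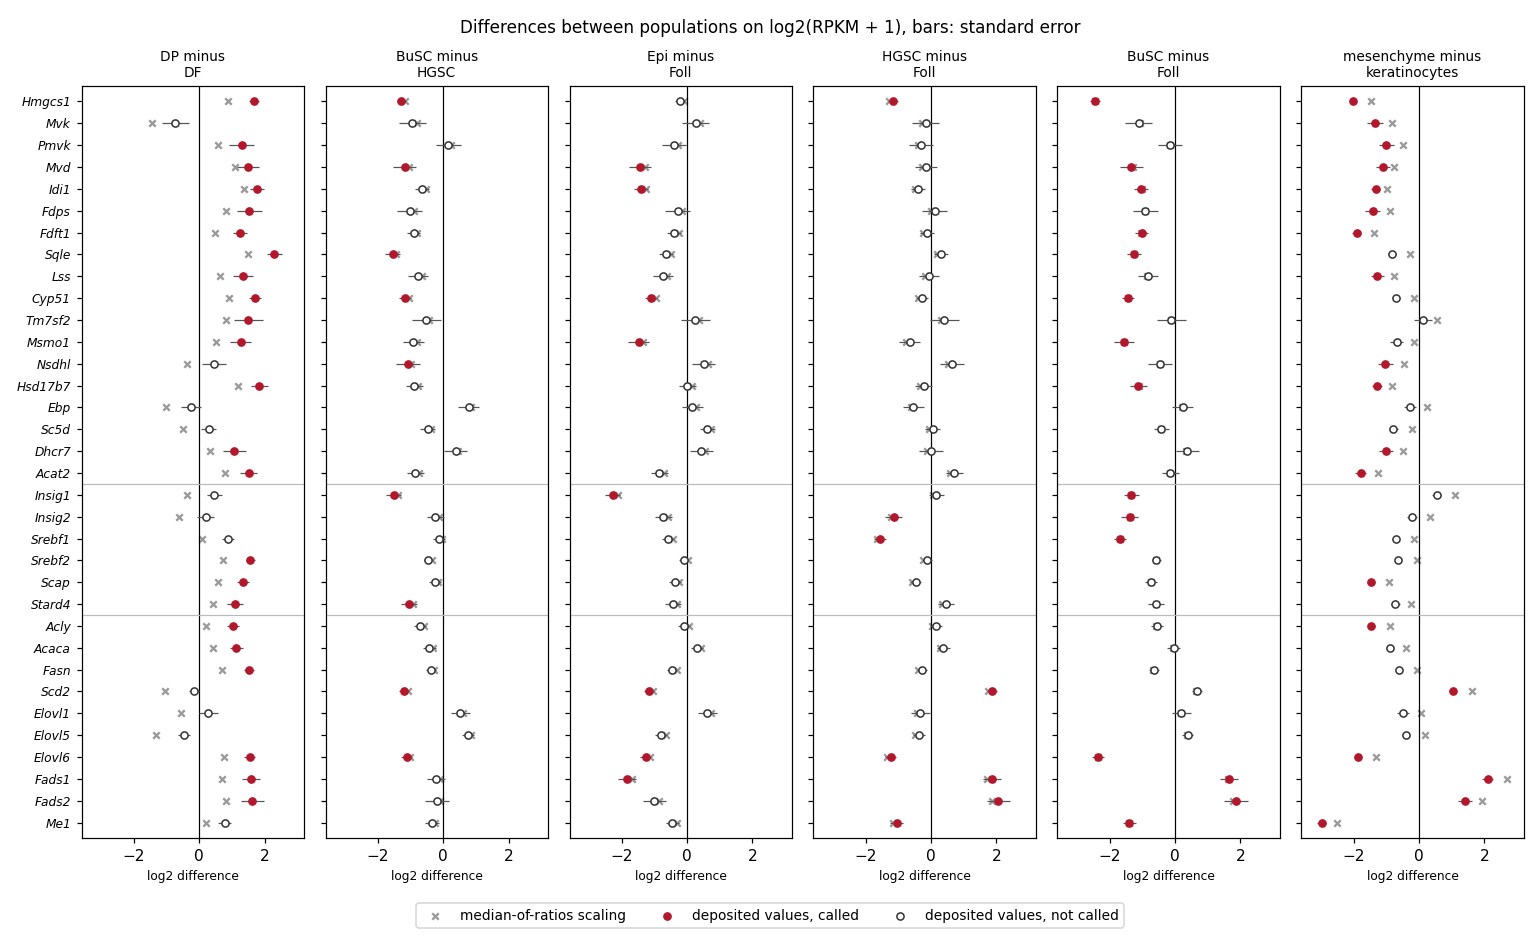
Log2 difference of each of the 34 genes in 6 comparisons between populations, on log2(RPKM + 1), with standard errors; filled points were called, open points were not, and grey crosses give the value after median-of-ratios scaling. In DP minus DF the rescaled values are lower (median 0.54 against 1.28), and in HGSC minus Foll the genes Fads1, Fads2 and Scd2 lie opposite to Hmgcs1, Elovl6 and Me1.

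BuSC was set against HGSC to compare the stem cell pools of the follicle. Several sterol genes were lower in BuSC, led by Sqle, Insig1 and Hmgcs1. Of the 34 genes, 9 were called lower in BuSC and 0 higher, beside 2.03% and 3.82% of all genes. The median log2 difference was -0.67 for the 34 genes and -0.04 for all genes. Genes higher in BuSC numbered 2 at an unadjusted p under 0.05, whatever its size, and 0 by voom on recovered reads. The shares of all genes under these rules were not computed. The 9 called lower were 5 sterol enzymes (Sqle, Hmgcs1, Mvd, Cyp51 and Nsdhl), the sensing genes Insig1 and Stard4, and the fatty acid genes Scd2 and Elovl6. Quantile and median-of-ratios scaling called 7 and 7 genes lower, beside 1.86% and 1.54% of all genes. Leaving out the HGSC library of zone 2, replicate 2, reduced the calls to 5, and leaving out the 5 libraries that stood apart gave 9.

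Sqle had 7.21 to 22.7 RPKM (median 13.7) in BuSC, against 27.4 to 84.4 RPKM (median 41.4) in HGSC, without overlap (log2 difference -1.55, SE 0.22, limma adjusted p = 2.27e-06). Hmgcs1 had 12.6 to 25.3 RPKM (median 18.6) in BuSC and 39.1 to 51.9 RPKM (median 47.4) in HGSC (-1.28, SE 0.15, adjusted p = 6.48e-08). Insig1, which retains SREBP when sterol is high and is itself a target of SREBP, had 3.88 to 10.997 RPKM (median 7.39) in BuSC and 14.9 to 29.4 RPKM (median 21.9) in HGSC (-1.51, SE 0.23, adjusted p = 8.98e-06). Sqle, Hmgcs1 and Insig1 were the genes of the list whose BuSC and HGSC libraries did not overlap. The share of all genes without overlap was not computed. Cyp51 averaged 13.6 ± 5.02 RPKM in BuSC and 31.3 ± 7.34 RPKM in HGSC (-1.16, SE 0.19, adjusted p = 2.04e-05). Mvd averaged 3.39 ± 2.24 RPKM in BuSC and 8.16 ± 2.71 RPKM in HGSC (-1.18, SE 0.35, adjusted p = 0.0213). Nsdhl, a sterol C4 decarboxylase, was at the edge of the threshold, with 14.8 ± 7.94 RPKM in BuSC and 30.5 ± 10.1 RPKM in HGSC (-1.08, SE 0.36, adjusted p = 0.0469), and kept its call in 5 of 16 fits that left out 1 library.

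Stard4, a sterol transfer protein, averaged 5.56 ± 3.44 RPKM in BuSC and 11.5 ± 2.87 RPKM in HGSC (log2 difference -1.04, SE 0.24, limma adjusted p = 0.00255). Scd2 averaged 29.4 ± 9.45 RPKM in BuSC and 67.96 ± 16.5 RPKM in HGSC (-1.20, SE 0.16, adjusted p = 4.74e-07), and Elovl6, the elongase that makes stearate from palmitate, 19.4 ± 6.56 RPKM in BuSC and 42.7 ± 9.81 RPKM in HGSC (-1.12, SE 0.17, adjusted p = 1.17e-05). The genes of the transcription factors were not called: Srebf1 averaged 10.03 ± 3.95 RPKM in BuSC and 10.8 ± 3.57 RPKM in HGSC, and Srebf2, which missed the call on size only, 24.2 ± 6.53 RPKM in BuSC and 32.5 ± 3.77 RPKM in HGSC (-0.45, adjusted p = 0.0211). Fibroblast markers summed to 1105 to 8634 RPKM in BuSC and 34.4 to 246 RPKM in HGSC, with 9 of 9 and 7 of 9 above 1 RPKM, and Pdgfra among those that were not in HGSC. Immune markers summed to 1.20 to 33.7 RPKM in BuSC, where Ptprc did not exceed 1 RPKM on average, and 71.9 to 417 RPKM in HGSC. The part of such cells in the result was not tested.

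Epi, HGSC and BuSC were each set against Foll, so these comparisons share the 8 Foll libraries. Epi had 8 of the 34 genes lower than Foll and 0 higher, beside 5.86% and 1.92% of all genes. The median log2 differences were -0.44 for the 34 genes and -0.09 for all genes. Genes higher in Epi numbered 2 at an unadjusted p under 0.05, whatever its size, and 0 by voom on recovered reads. The shares of all genes under these rules were not computed. HGSC had 5 lower and 3 higher, beside 6.31% and 5.46%, with medians of -0.14 and 0.05. BuSC had 13 lower and 2 higher, beside 5.88% and 6.35%, with medians of -0.69 and 0.04. Without the 5 libraries that stood apart, 10 genes were lower in Epi, 5 in HGSC and 12 in BuSC, and 0, 3 and 2 were higher. Of all genes called between Epi and Foll, 24.7% were higher in Epi as deposited, 42.5% after quantile scaling and 38.05% after median-of-ratios scaling. Quantile scaling called 6 of the 34 genes lower in Epi, and median-of-ratios scaling 7, beside 3.43% and 4.24% of all genes.

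Hmgcs1 had 66.9 to 121 RPKM (median 97.6) in Epi, 39.1 to 51.9 RPKM (median 47.4) in HGSC and 12.6 to 25.3 RPKM (median 18.6) in BuSC, against 81.5 to 124 RPKM (median 114) in Foll. Epi overlapped Foll and was not called, while HGSC (log2 difference -1.16, SE 0.15, limma adjusted p = 3.05e-07) and BuSC (-2.44, SE 0.15, adjusted p = 1.05e-14) lay wholly below it. Msmo1, a C4 methylsterol oxidase, had 2.76 to 10.5 RPKM (median 9.73) in Epi and 16.6 to 36.6 RPKM (median 29.5) in Foll, without overlap (-1.48, SE 0.31, adjusted p = 0.000957), and 2.74 to 25.5 RPKM in BuSC (-1.57, SE 0.31, adjusted p = 0.000244). Idi1 averaged 3.52 ± 1.10 RPKM in Epi and 10.8 ± 2.65 RPKM in Foll, also without overlap (-1.40, SE 0.21, adjusted p = 1.80e-05). Cyp51 averaged 17.2 ± 4.67 RPKM in Epi (-1.10, SE 0.19, adjusted p = 7.51e-05), 13.6 ± 5.02 RPKM in BuSC (-1.44, SE 0.19, adjusted p = 2.45e-07) and 37.2 ± 5.64 RPKM in Foll. Mvd averaged 3.45 ± 3.44 RPKM in Epi and 9.42 ± 3.44 RPKM in Foll (-1.44, SE 0.35, adjusted p = 0.00366). BuSC was also lower than Foll in Mvd, Sqle, Hsd17b7, Idi1 and Fdft1, the squalene synthase, by log2 differences of -1.34 to -1.02.

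Insig1 showed the largest difference of the 34 genes between Epi and Foll. It had 0.647 to 6.90 RPKM (median 3.72) in Epi, against 15.2 to 24.7 RPKM (median 18.9) in Foll, without overlap (log2 difference -2.28, SE 0.23, limma adjusted p = 2.00e-08). BuSC was also below Foll (-1.35, SE 0.23, adjusted p = 2.90e-05). Srebf1 had 5.62 to 14.3 RPKM (median 12.2) in HGSC and 4.30 to 15.5 RPKM (median 10.1) in BuSC, against 23.3 to 45.9 RPKM (median 32.7) in Foll. Neither stem cell population overlapped Foll (-1.56, SE 0.19, adjusted p = 7.19e-08 for HGSC, and -1.69, SE 0.19, adjusted p = 9.98e-09 for BuSC), and Epi, at 22.5 ± 7.87 RPKM, differed by less than the size for a call (-0.58, adjusted p = 0.0302). Insig2 averaged 10.9 ± 4.16 RPKM in HGSC, 9.76 ± 6.21 RPKM in BuSC and 24.4 ± 5.61 RPKM in Foll (-1.15 for HGSC and -1.39 for BuSC, both called). Scap and Srebf2 were called in none of these comparisons.

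Elovl6 had 29.2 to 57.4 RPKM (median 40.1) in Epi, 24.3 to 57.1 RPKM (median 41.9) in HGSC and 14.2 to 33.97 RPKM (median 17.6) in BuSC, against 67.6 to 153 RPKM (median 99.1) in Foll. None of the populations overlapped Foll (log2 difference -1.27, SE 0.17, limma adjusted p = 3.06e-06 for Epi; -1.24, SE 0.17, adjusted p = 1.37e-06 for HGSC; -2.36, SE 0.17, adjusted p = 9.17e-13 for BuSC). Me1, the malic enzyme that supplies NADPH for lipid synthesis, averaged 30.2 ± 11.2 RPKM in Epi, 18.6 ± 1.99 RPKM in HGSC, 15.1 ± 4.68 RPKM in BuSC and 41.8 ± 14.3 RPKM in Foll. It was called lower in HGSC (-1.05, SE 0.20, adjusted p = 0.000186) and BuSC (-1.40, SE 0.20, adjusted p = 2.23e-06), not in Epi (-0.46, adjusted p = 0.131).

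The desaturases took another order. Fads1 had 0.0923 to 11.2 RPKM (median 1.51) in Epi, 22.8 to 63.7 RPKM (median 34.96) in HGSC and 18.7 to 49.7 RPKM (median 31.5) in BuSC, against 3.57 to 24.9 RPKM (median 9.60) in Foll. Ranges overlapped in each comparison, and Fads1 was called lower in Epi (log2 difference -1.85, SE 0.27, limma adjusted p = 8.16e-06) and higher in HGSC (1.87, SE 0.27, adjusted p = 2.10e-06) and BuSC (1.65, SE 0.27, adjusted p = 1.29e-05). Fads2 had 0 to 3.59 RPKM (median 0.164) in Epi, where 3 libraries are listed at 0, 5.08 to 28.2 RPKM (median 11.3) in HGSC, 6.55 to 26.1 RPKM (median 9.01) in BuSC and 0.195 to 8.64 RPKM (median 1.83) in Foll. It was called higher in HGSC (2.06, SE 0.36, adjusted p = 3.76e-05) and BuSC (1.87, SE 0.36, adjusted p = 0.000137). Scd2 averaged 8.11 ± 4.24 RPKM in Epi, 67.96 ± 16.5 RPKM in HGSC, 29.4 ± 9.45 RPKM in BuSC and 21.3 ± 13.2 RPKM in Foll. It was called lower in Epi (-1.18, SE 0.16, adjusted p = 2.07e-06) and higher in HGSC (1.87, SE 0.16, adjusted p = 4.15e-11), while BuSC, at 0.66, fell short of the size for a call.

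**Figure D4:**
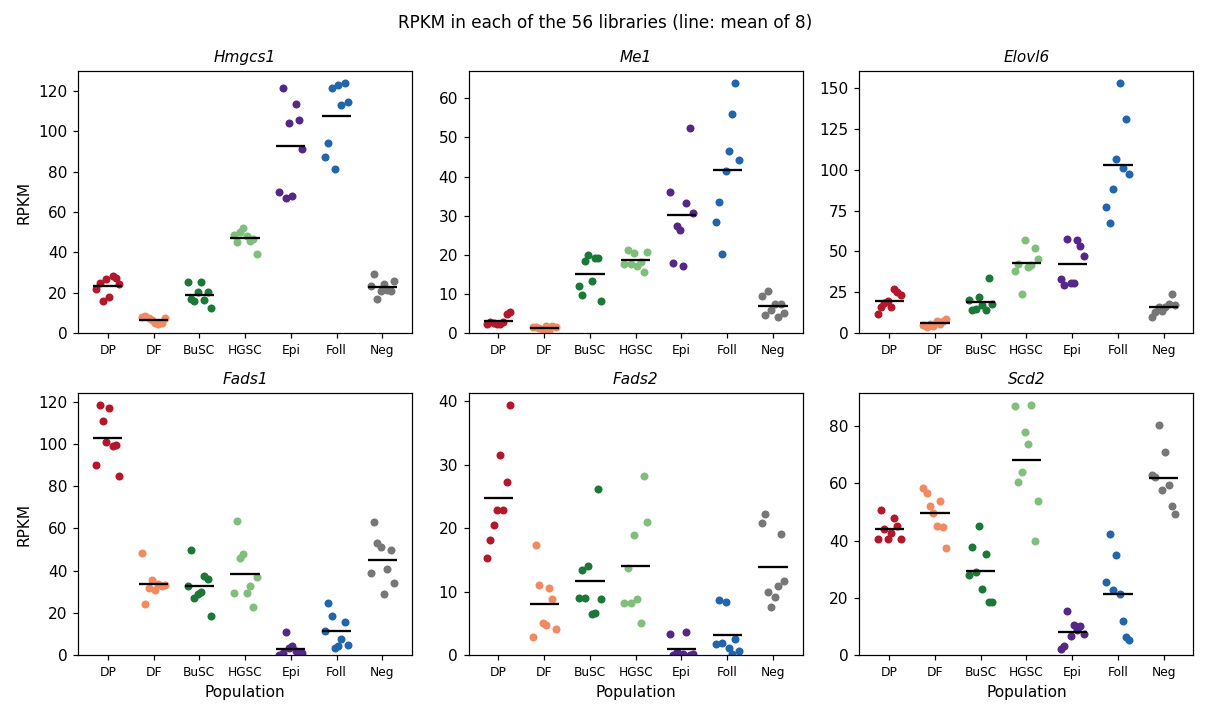
RPKM of Hmgcs1, Me1, Elovl6, Fads1, Fads2 and Scd2 in each of the 56 libraries, by population, with means of 8. Hmgcs1, Me1 and Elovl6 have their highest means in Foll (107, 41.8 and 103 RPKM), and Fads1, Fads2 and Scd2 their lowest in Epi (2.93, 0.969 and 8.11 RPKM).

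Markers of the sebaceous gland and upper follicle had higher sums in Foll than in Epi, HGSC or BuSC. They summed to 127 to 271 RPKM in Epi, 129 to 229 in HGSC, 50.3 to 138 in BuSC and 463 to 695 in Foll. In Foll 12 of 13 markers averaged above 1 RPKM, and Awat2, a wax synthase of sebocytes, did so in BuSC and Foll but not in Epi or HGSC. Cell cycle genes summed to 108 to 211 RPKM in Epi, 424 to 737 in HGSC, 365 to 691 in BuSC and 177 to 452 in Foll. Their part in the results was not tested.

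DP and DF together were set against BuSC, HGSC, Epi and Foll together (16 and 32 libraries) to compare mesenchyme with keratinocytes. On the deposited scale, most sterol enzymes (12 of 18) were lower in mesenchyme and 3 desaturases were higher. Quantile scaling left 4 of the 18 sterol enzymes lower, and median-of-ratios scaling 3. Of the 34 genes, 16 were called lower in mesenchyme and 3 higher, beside 18.5% and 9.77% of all genes. The share called higher was thus no larger than that of all genes. Median log2 differences were -0.86 for the 34 genes and -0.27 for all genes. The counts again depended on scaling: 6 were lower after quantile scaling and 5 after median-of-ratios scaling, beside 11.7% and 10.1% of all genes, and 34.5%, 52.7% and 59.4% of all calls were higher in mesenchyme as deposited, by quantile and by median of ratios. Without the 5 libraries that stood apart, 15 were lower. Fads1, Fads2 and Scd2 stayed higher under both rescalings, and median-of-ratios scaling added Insig1 (1.11, against 0.55 as deposited).

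Me1 was the gene of the list whose lineages did not overlap in any library. How large a share of all genes did the same was not computed. Me1 averaged 2.30 ± 1.27 RPKM in mesenchyme and 26.4 ± 13.9 RPKM in keratinocytes (log2 difference -2.98, SE 0.13, limma adjusted p = 4.88e-21, and -2.52 rescaled). Hmgcs1 (-2.03, SE 0.09), Fdft1 (-1.91, SE 0.13), Elovl6 (-1.88, SE 0.11) and Acat2, a cytosolic thiolase (-1.78, SE 0.16), were also called lower under both rescalings. Scap (-1.47), Acly, the ATP citrate lyase (-1.46), and Fdps, the farnesyl diphosphate synthase (-1.41), were called as deposited and not after median-of-ratios scaling (-0.92, -0.89 and -0.90). The genes called higher in mesenchyme were desaturases, and DP and DF did not both exceed every keratinocyte population in any of them. Fads1 averaged 68.2 ± 36.7 RPKM in mesenchyme and 21.4 ± 17.3 RPKM in keratinocytes (2.10, SE 0.16, adjusted p = 1.61e-13, and 2.68 rescaled). By population, Fads1 averaged 103 ± 12.1 RPKM in DP and 33.9 ± 6.79 in DF, and 38.7 ± 13.2 in HGSC and 32.7 ± 9.03 in BuSC, neither of which differed from DF beyond the spread. Fads2 averaged 16.4 ± 10.6 RPKM in mesenchyme and 7.46 ± 7.64 RPKM in keratinocytes (1.42, SE 0.22, adjusted p = 7.37e-07), but DF, at 8.07 RPKM, was below the means of HGSC, 14.04 RPKM, and BuSC, 11.7 RPKM. Scd2 averaged 46.9 ± 6.15 RPKM in mesenchyme and 31.7 ± 25.2 RPKM in keratinocytes (1.03, SE 0.10, adjusted p = 1.33e-11), but its mean of 67.96 RPKM in HGSC was above those of DP and DF, and single BuSC and Foll libraries, up to 45.03 and 42.3 RPKM, reached into the ranges of DP (40.6 to 50.7 RPKM) and DF (37.4 to 58.5 RPKM).

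The other fatty acid genes were not called in the comparisons with Foll. Acly, Acaca and Fasn, which make malonyl-CoA and palmitate, averaged 15.8 ± 2.86, 8.65 ± 1.65 and 26.8 ± 6.01 RPKM in DP, and 7.21 ± 1.05, 3.38 ± 0.848 and 8.58 ± 1.71 RPKM in DF. Elovl5, an elongase of polyunsaturated fatty acids, had its highest means in Neg, 45.4 ± 10.8 RPKM, and BuSC, 39.04 ± 8.12 RPKM, which did not differ beyond their spread. Elovl1, an elongase of very long chains, averaged 23.96 ± 7.23 RPKM in Neg and 22.6 ± 10.1 RPKM in Epi. Neg is mixed: its libraries summed to 7777 to 15446 RPKM of fibroblast, 1755 to 2519 of immune and 354 to 848 of basal keratinocyte markers. Melanocyte markers summed to 299 to 578 RPKM and endothelial markers to 138 to 258 RPKM. Adipocyte markers summed to 185 to 379.8 RPKM, with 5 of 10 averaging above 1 RPKM (not Cfd, Lep, Retn, Cidec or Pck1). In Neg, Hmgcs1 averaged 22.8 ± 3.68 RPKM and Elovl6 16.1 ± 4.15 RPKM, near their levels in DP and BuSC. Fads1 averaged 45.1 ± 11.2 RPKM and Scd2 61.8 ± 10.03 RPKM in Neg, neither different from HGSC beyond the spread.

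As a description, most of the genes followed the sterol enzymes in level across the 28 groups, which share scaling and sorting. The Pearson correlation of a gene with the mean of the other sterol enzymes on the log2 scale (n = 28 group means) was 0.93 for Scap, 0.93 for Acly, 0.93 for Fdps and 0.91 for Fdft1, the highest of the list. It was 0.89 for Elovl6 and 0.85 for Me1, but -0.34 for Fads1, -0.29 for Scd2 and -0.28 for Fads2. Fads1 correlated with Fads2 at 0.89 and with Scd2 at 0.83, and Hmgcs1 with Elovl6 at 0.92 and with Fads1 at -0.64. The values depended on scaling. After median-of-ratios scaling Fdps (0.86), Elovl6 (0.85) and Hmgcs1 (0.85) were highest, Scap was at 0.83, and Fads1 (-0.60), Fads2 (-0.60), Scd2 (-0.53) and Elovl5 (-0.49, against -0.01 as deposited) were lower. Centred within populations, on the deposited scale, the correlation with the sterol enzymes was highest for Acat2 (0.68), Fdps (0.65) and Insig2 (0.62). For the other genes named here it was 0.28 for Fdft1, 0.34 for Scap, -0.25 for Acly, -0.20 for Elovl6, 0.11 for Me1, 0.16 for Hmgcs1, 0.38 for Fads1, -0.07 for Fads2, 0.41 for Scd2 and 0.14 for Elovl5.

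Zones were compared within each population. By the limma F test at an adjusted p under 0.05, 0 of the 34 genes were called in DP (0.43% of all genes), 0 in DF (0.197%), 0 in BuSC (0.359%), 0 in HGSC (0.137%), 2 in Epi (1.79%), 1 in Foll (1.03%) and 0 in Neg (1.01%). At an unadjusted p under 0.05 there were 0 in DP, 2 in DF, 7 in BuSC, 1 in HGSC, 4 in Epi, 2 in Foll and 0 in Neg. The shares of all genes at this unadjusted threshold were not computed, so these counts have nothing to be read against. Voom on the recovered reads called 10 of the 34 in BuSC, where it called 16.5% of all genes, and 0 in each other population, where it called 0.132% in DP, 0.192% in DF, 0.054% in HGSC, 0.654% in Epi, 0.246% in Foll and 0.258% in Neg. Without the 5 libraries that stood apart, limma called 3 in Epi, 1 in Foll and 0 in the others.

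The genes called were desaturases. Scd2 in Foll had 25.5 and 42.3 RPKM in zone 1, 22.7 and 35.1 in zone 2, 21.5 and 12.1 in zone 3, and 6.26 and 5.26 in zone 4. Zone 4 lay below every library of the other zones (-0.78 log2 per zone, SE 0.10, limma adjusted p of the zones = 0.000103). Leaving out single Foll libraries gave slopes of -0.88 to -0.67, each called, and without the 3 Foll libraries that stood apart the slope was -0.60 (adjusted p = 0.00408), while voom gave an adjusted p of 0.123. Hair germ markers in Foll summed to 144 and 239.7 RPKM in zone 1, 158 and 105 in zone 2, 126 and 127 in zone 3, and 47.6 and 71.8 in zone 4. Interfollicular epidermis markers summed to 1508 and 1992 RPKM in zone 1, 833 and 3592 in zone 2, 1045 and 4649 in zone 3, and 1615 and 3566 in zone 4. Their part in the trend was not tested.

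Scd2 in Epi had 2.25 and 3.37 RPKM in zone 1, 15.6 and 6.60 in zone 2, 10.5 and 8.75 in zone 3, and 10.3 and 7.51 in zone 4. Zone 1 was the low zone (0.41 log2 per zone, SE 0.10, limma adjusted p of the zones = 0.00802), and the call was lost without the zone 1, replicate 1, library (adjusted p = 0.120), after quantile scaling (0.117) and with voom (0.527). Fads1 in Epi had 0.129 and 1.19 RPKM in zone 1, 11.2 and 3.68 in zone 2, 4.29 and 1.82 in zone 3, and 0.0923 and 1.06 in zone 4. It was highest in zone 2 (adjusted p = 0.0265), and lost its call without the zone 2, replicate 1, library (0.166) or the zone 4, replicate 1, library (0.0633), after quantile scaling (0.139) and with voom (0.398).

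The trend of Scd2 over zones differed between populations (limma F test of the slopes, adjusted p = 0.000599), and 1 of the 34 genes was so called, beside 0.699% of all genes. The slopes, in log2 per zone, were -0.02 in DP, -0.15 in DF, -0.27 in BuSC, -0.17 in HGSC, 0.41 in Epi, -0.78 in Foll and -0.10 in Neg.

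**Figure D5:**
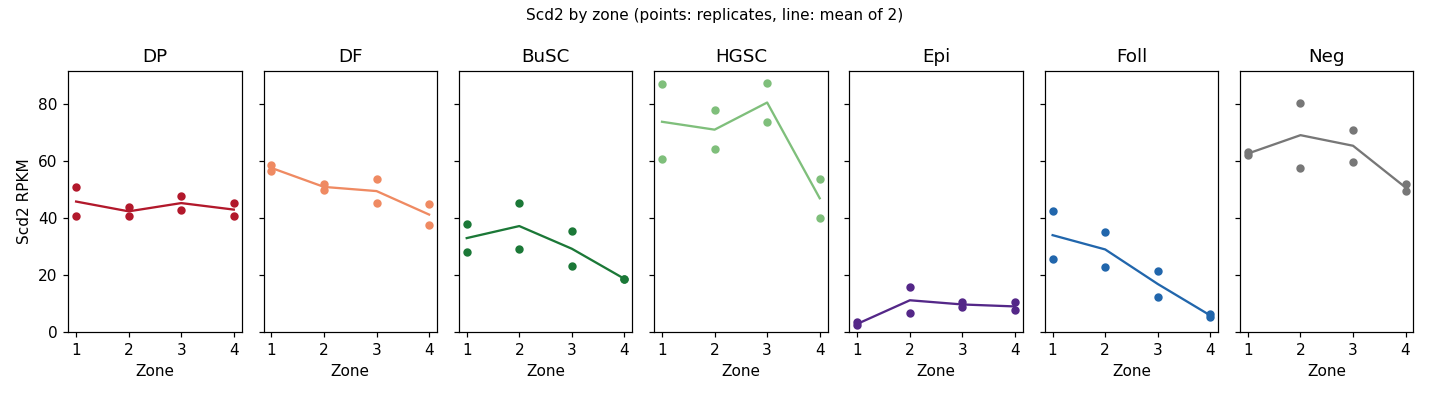
Scd2 RPKM by zone in each population; points are replicates and lines their mean. Zone means in Foll are 33.9, 28.9, 16.8 and 5.76 RPKM from zone 1 to zone 4, and in Epi 2.81, 11.1, 9.61 and 8.92 RPKM.

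Elovl6 was the gene of the list with a trend over zones shared by the populations (limma, 0.20 log2 per zone, SE 0.04, adjusted p = 0.0163), 1 of 34 beside 0.257% of all genes. Its slope was positive in 7 of 7 populations. Zone means from 1 to 4 were 13.96, 18.96, 21.5 and 24.1 RPKM in DP, 4.44, 5.09, 6.56 and 8.19 RPKM in DF and 17.2, 18.6, 15.7 and 26.1 RPKM in BuSC. They were 40.3, 40.7, 41.1 and 48.9 RPKM in HGSC, 31.1, 43.95, 43.7 and 50.2 RPKM in Epi, 72.4, 97.4, 127 and 114 RPKM in Foll and 11.4, 15.1, 17.1 and 20.7 RPKM in Neg. Each zone was above the one before it in DP, DF, HGSC and Neg, and not in BuSC, Epi or Foll. The call held in 56 of 56 fits that left out 1 library, with slopes of 0.18 to 0.22, and without the 5 libraries that stood apart (0.19, adjusted p = 0.0377).

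In populations with no called gene, the lowest zone p-values of the sterol and fatty acid groups belonged to the following genes, with zone means in RPKM from 1 to 4. In DP they were Dhcr7, the last reductase of the pathway (8.11, 5.32, 19.7 and 11.9), Fdft1 (10.5, 8.62, 12.96 and 19.6), Me1 (2.67, 2.46, 2.57 and 5.07) and Elovl6, given above. In DF they were Acat2 (9.04, 2.95, 1.80 and 2.16), Sqle (5.32, 5.97, 4.20 and 9.51), Elovl6 and Fasn (7.73, 8.79, 7.25 and 10.5). In BuSC they were Sc5d, the lathosterol oxidase (4.42, 13.7, 12.5 and 12.1), Acat2 (33.5, 24.8, 34.9 and 9.93), Scd2 (32.9, 37.1, 29.2 and 18.6) and Acaca (14.05, 9.87, 6.004 and 9.38). In HGSC they were Pmvk, the phosphomevalonate kinase (10.6, 8.61, 29.01 and 13.4), Hsd17b7 (8.26, 12.1, 20.1 and 16.5), Scd2 (73.7, 70.9, 80.4 and 46.9) and Fads2 (10.98, 13.6, 6.98 and 24.6). In Neg they were Sc5d (6.98, 9.55, 9.47 and 4.75), Idi1 (2.01, 2.64, 4.95 and 1.94), Fasn (14.3, 9.63, 7.91 and 12.4) and Elovl6.

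Adjoining lipid pathways were read from 2 further lists. Of 20 genes of triglyceride, wax and very long chain lipids, 8 were lower than in Foll in Epi, 10 in HGSC and 12 in BuSC, and 0, 0 and 1 were higher. Of all genes, 5.86% were lower in Epi, 6.31% in HGSC and 5.88% in BuSC, and 1.92%, 5.46% and 6.35% higher. Fa2h, a fatty acid hydroxylase, averaged 34.2 ± 17.01 RPKM in Epi, 5.19 ± 10.02 RPKM in BuSC and 86.4 ± 21.4 RPKM in Foll. Dgat2, which forms triglyceride, averaged 2.82 ± 1.40 RPKM in HGSC, 1.82 ± 1.35 RPKM in BuSC and 41.4 ± 16.3 RPKM in Foll. Both genes, like Awat2, Far2 and Elovl3, also stand in the sebaceous marker list, so the lists are not independent. Of 19 genes of sterol uptake, efflux and oxysterol sensing, 2 were lower than in Foll in Epi, 7 in HGSC and 6 in BuSC, and 0, 1 and 1 were higher. The lower count in Epi and the higher counts lie near the shares of all genes just given. Soat1, which esterifies cholesterol, averaged 8.70 ± 6.54 RPKM in Epi, 7.02 ± 3.40 RPKM in HGSC, 2.50 ± 2.14 RPKM in BuSC and 24.8 ± 10.96 RPKM in Foll.

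Between BuSC and HGSC, 4 genes of the triglyceride list and 1 of the uptake list were lower in BuSC, and 0 and 2 higher, beside 2.03% and 3.82% of all genes. Between DP and DF, 4 of each list were higher in DP and 0 lower as deposited, a share no larger than the 24.2% of all genes called higher. Median-of-ratios scaling changed this to 1 higher and 1 lower in the triglyceride list and 2 higher and 5 lower in the uptake list. Of all genes, 6.3% were then higher and 12.4% lower. Between mesenchyme and keratinocytes, 13 genes of the triglyceride list were lower in mesenchyme and 0 higher as deposited. Of the uptake list, 3 were lower and 2 higher, beside 18.5% and 9.77% of all genes. After median-of-ratios scaling the triglyceride list had 11 lower and 0 higher, and the uptake list 0 lower and 3 higher. Of the 16731 genes tested, 10.1% were then lower and 2475 genes were higher.

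Some values are uncertain because the sources used here do not say whether counting used strand. In the GENCODE M21 annotation, exons of Fdps overlap Gm43738 and those of Tm7sf2 overlap Vps51 on the same strand, and exons of Fdft1 overlap Ctsb on the opposite strand. Exons of Hmgcs1, Idi1, Lss, Cyp51, Srebf1, Scap, Elovl1, Elovl6 and Me1 also overlap a gene on the opposite strand. Related genes, such as Acat3 for Acat2, Idi2 for Idi1 and other Scd genes for Scd2, could share reads with the genes named, which was not tested.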

How the data were processed

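The deposited table gives RPKM per gene, made by the authors. Per the submitters' processing notes, the build was mm10 and the tools included STAR 2.4.0, featureCounts, limma, edgeR and DESeq2; the sources used here do not give their settings. RNA from the sorted cells was amplified before library preparation, per the labels' protocols. Table columns were mapped to samples by name. Whole reads could be recovered from the deposited RPKM for 22179 of 22233 genes, within 0.02 reads, which gave each library's depth.

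Tests used limma 3.58.1 (R 4.3.3, statmod 1.5.0) on log2(RPKM + 1), which understates changes of low genes. The fit had 1 mean for each of 28 groups, 28 residual degrees of freedom and a variance trend. P-values were two-sided, adjusted by Benjamini-Hochberg over 16731 genes, and rest on the spread between the 2 replicates of a zone. A zone trend is linear in zone number. Named in full were up to 8 called genes per direction with the largest differences, and up to 4 per further list.

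The 34 genes, the lists and the naming rule were chosen with earlier results of these data known. Alternatives were quantile and median-of-ratios scaling, a pseudocount of 0.1, no filter, a replicate block, voom on recovered reads (16677 genes), no minimum difference and leaving out each library; removal of 5 libraries was chosen after seeing the data. The fits were tested on simulated data in which all populations shared the same mean levels apart from genes changed in DP. Such data cannot speak to the effect of scaling on the counts.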

Additional observations from a re-analysis of the deposited data

Results flagged for a closer look

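In 18 of 238 groups of 8 libraries (34 genes in 7 populations), 1 library lay so far from the rest that its gap to the nearest, as a share of the whole range, exceeded Dixon's critical value; chance gives this in about 1 in 20 groups. The Foll library of zone 2, replicate 1, accounts for several. There Mvd had 2.15 RPKM against 7.63 to 13.1 RPKM in the other Foll libraries, Fdps had 7.40 RPKM against 18.6 to 30.3 RPKM, Lss had 5.98 RPKM against 17.4 to 30.7 RPKM and, on the high side, Acaca had 18.4 RPKM against 7.43 to 10.7 RPKM. In the Epi library of zone 4, replicate 1, Msmo1 had 2.76 RPKM against 9.005 to 10.5 RPKM in the other Epi libraries and, on the high side, Hsd17b7 had 36.2 RPKM against 10.8 to 17.9 RPKM. In the Neg library of zone 3, replicate 1, Elovl5 had 22.9 RPKM against 40.4 to 58.3 RPKM in the other Neg libraries and, on the high side, Idi1 had 7.90 RPKM against 1.52 to 3.02 RPKM. In the HGSC library of zone 2, replicate 1, Mvd had 2.404 RPKM against 6.77 to 10.6 RPKM in the other HGSC libraries, and Elovl6 had 24.3 RPKM against 38.3 to 57.1 RPKM.

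The remaining cases were single low values. Mvk had 0.0414 RPKM in BuSC zone 3, replicate 2, against 3.72 to 14.2 RPKM in the others. Scap had 9.69 RPKM in BuSC zone 4, replicate 1, against 16.5 to 23.6 RPKM in the others, and that library held the most fibroblast transcripts of BuSC. Idi1 had 1.40 RPKM in Epi zone 1, replicate 1, against 2.88 to 4.89 RPKM in the others. Lss had 1.31 RPKM in Epi zone 3, replicate 1, against 10.6 to 20.99 RPKM in the others. Acat2 had 3.74 RPKM in Epi zone 1, replicate 2, against 12.7 to 25.8 RPKM in the others. Cyp51 had 14.7 RPKM in HGSC zone 1, replicate 2, against 30.2 to 40.01 RPKM in the others. Nsdhl had 2.43 RPKM in DP zone 2, replicate 2, against 10.7 to 21.1 RPKM in the others. Insig2 had 12.4 RPKM in Foll zone 4, replicate 2, against 21.96 to 30.1 RPKM in the others.

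The trend of Scd2 over zones differed between populations by the limma F test of the slopes (adjusted p = 0.000599), from -0.78 log2 per zone in Foll to 0.41 in Epi.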

How the results depend on the processing

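Scaling changed the counts most. For DP against DF, quantile scaling gave 6 genes higher and 2 lower, and median-of-ratios scaling 4 and 4; for mesenchyme against keratinocytes they gave 6 and 5 lower; the cause was not tested. In Epi zones quantile scaling gave 0 calls. Voom on recovered reads gave 10 calls in BuSC zones, 0 in Foll and 0 in Epi. With no minimum difference, which admits smaller changes by construction, DP against DF had 1 lower, BuSC against HGSC 1 higher and 15 lower, Epi against Foll 13 lower, and mesenchyme against keratinocytes 27 lower. Leaving out 1 library gave 0 to 1 genes lower in DP than in DF (1 without DP zone 2, replicate 1), 5 to 12 lower in BuSC than in HGSC, 1 to 3 over Epi zones (1 without replicate 1 of zone 1, 2 or 4) and 1 to 2 for the shared zone trend (2 without BuSC zone 1, Foll zone 1 or Foll zone 3, replicate 1, or Epi zone 2, replicate 2). The zone slope of Fads1 in Epi, -0.12, ranged from -0.26 to 0.026 when 1 library was left out, turning positive, at 0.026, without Epi zone 1, replicate 2, and, at 0.020, without Epi zone 4, replicate 1. A replicate block left the counts at 23 higher in DP than in DF, 9 lower in BuSC than in HGSC, 8 lower in Epi than in Foll and 16 lower in mesenchyme, and changed no call of a named gene. The labels do not say whether same-numbered libraries share animals. Deviations of same-numbered libraries correlated at -0.06 to 0.09 over 378 pairs of groups, which cannot decide it. A pseudocount of 0.1, no filter on low values and the removal of the 5 libraries that stood apart moved no count by over 1.5 times. Values near 0 RPKM, such as Fads2 in Epi, rest on few reads in the shallower libraries.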
